A study of Mus musculus with 16 samples.

Results

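The antiviral effectors switched on by interferon were followed as a list of 40 genes, chosen by name: each probe set of the array whose gene symbol is one of the 40 was taken, and the Ifit, Oas, GTPase and Schlafen families were left out. Of the 40 genes 38 were measured, on 74 probe sets, out of 18193 genes and 45101 probe sets in all. Isg15 is named only on a probe set shared by several genes and Ifi44 has no probe set in the probe table, so these genes were not analysed here. Each gene is represented by its brightest probe set on average, and the remaining 36 probe sets of 21 members are described after the main results.

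The cells were immature dendritic cells of C57BL/6 mice, grown from bone marrow for 8 days with GM-CSF (15 ng/ml) and harvested as the non-adherent fraction. They were put in fresh medium with GM-CSF (10 ng/ml), and the probiotic bacterium Lactobacillus acidophilus, strain NCFM, was added at 10 µg/ml for 4, 10 or 18 h. Control cells of the same strain and culture carry only a control label and a time, and the labels do not say what they received in place of the bacterium. NCFM cells had 3 arrays at each time, control cells 3 at 4 h, 2 at 10 h and 2 at 18 h, 16 arrays in 6 groups. The title of the series names TLR-2 as the receptor behind the induction of these genes; all arrays are of wild-type cells, so its part in the changes was not tested. Whether replicates came from separate mice or cultures is not in the labels. The spread that a p-value is set against here is that between arrays. Arrays numbered 1 differ in Xist from the others in every group, as described below. The spread between arrays numbered 2 and 3 may be technical.

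Type I interferon binds a receptor whose kinases Jak1 and Tyk2 activate a transcription factor complex that includes Stat2 and Irf9. The complex binds the interferon-stimulated response element (ISRE) and switches on genes whose products block viruses. The products cut or edit viral RNA, deplete nucleotides, hold budding virus at the membrane, tag proteins with ISG15 or ADP-ribose, or feed back on the pathway itself. Dendritic cells make interferon beta after microbes are sensed and respond to it, so the signal and the response can arise in one culture.

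Promoter sequences are shown first because the pathway is known to act through the ISRE. In the RefSeq promoter table (GRCm38.p6), windows from 250 bases before to 50 bases after the start were found for 30 of the 38 measured members. The ISRE was searched as GAAA, any 2 bases, GAAA, on both strands, with overlapping matches counted. They were in the window of 8 members, 26.7% of 30, against 3.99% of 27025 genes and 3.44% of 32851 windows. The 8 were Rsad2, Eif2ak2, Ddx60, Bst2, Ifitm3, Lgals9, Trim21 and Trim30a. The windows of the other 22, Cmpk2, Isg20 and Xaf1 among them, held no match. The part before the start is printed for the 5 members with a match there, on the gene's own strand, with the matches in capitals. Rsad2 is at chr12:26456523-26456612, minus strand. Bst2 is at chr8:71537547-71537642, minus strand, and holds 2 overlapping matches. Ddx60 is at chr8:61927994-61928086, plus strand, and holds 2 separate ones. Lgals9 is at chr11:78984930-78985019 and Trim30a at chr7:104465194-104465269, both on the minus strand, where the match reads in the opposite direction as it does in Rsad2.
Rsad2: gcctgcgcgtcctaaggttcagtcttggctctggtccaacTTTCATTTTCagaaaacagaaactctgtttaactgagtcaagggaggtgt
Bst2: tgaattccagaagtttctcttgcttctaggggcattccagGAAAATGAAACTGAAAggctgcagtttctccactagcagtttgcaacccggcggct
Ddx60: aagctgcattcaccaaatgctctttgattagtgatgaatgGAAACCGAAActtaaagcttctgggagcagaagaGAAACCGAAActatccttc
Lgals9: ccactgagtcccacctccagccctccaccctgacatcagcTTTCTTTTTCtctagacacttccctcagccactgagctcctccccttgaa
Trim30a: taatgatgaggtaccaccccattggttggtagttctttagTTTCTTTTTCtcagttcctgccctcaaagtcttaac
The shorter letters GAAANNGAA, part of the ISRE, were in 11 of the 30 windows (36.7%, against 9.76% of all genes). A match describes these letters in this window and is not a binding site.

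Before the results, the arrays numbered 1 have to be described, because they stood apart in all 6 groups. Their level of Xist, the RNA that coats the inactive X, differed from that of their partners by -3.28 to -4.84 on the log2 scale. On the same arrays 28 to 35 of the 38 members were lower as well. The median difference over members was between -0.145 and -0.215 in the NCFM groups and the 4 h control, but -0.454 in the 10 h control and -0.679 in the 18 h control, against -0.015 to 0 over all genes. In each of those controls only 1 other array is present, so the level of a member in control cells at 10 and 18 h is the mean of a lower and a higher array. Changes at 10 and 18 h are given without control array 1 too where a call was lost or the change moved by over 1.5-fold.

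Cell type markers set the background. All 7 dendritic cell markers were measured. Their intensities summed to 40953 to 45117 in NCFM cells and 40977 to 42843 in control cells at 4 h, to 36509 to 38496 and 40157 to 40205 at 10 h, and to 34187 to 37020 and 41979 to 43889 at 18 h. The NCFM sums were thus below the control sums at 10 and 18 h. Of the 7, Itgax (CD11c) fell at 10 h (-0.61, adjusted p = 0.0262) and 18 h (-0.81, adjusted p = 0.00622), and Cd74 (-0.23, adjusted p = 0.0286) and Ciita (-0.54, adjusted p = 0.0395), both of antigen presentation, fell at 18 h. The 7 macrophage markers summed to between 25356 and 55573 per array. Of these, Fcgr1 rose at 4, 10 and 18 h (1.07, 1.57 and 1.40, limma adjusted p = 0.00717, 0.000979 and 0.00206). Mertk rose at 10 h (1.11, adjusted p = 0.0354), and the other macrophage markers passed at no time. Neutrophil markers (7 of 9 measured) summed to 7730 to 35702 in NCFM cells at 4 h, 12913 to 34015 at 10 h and 5556 to 16953 at 18 h. In control cells they summed to 28390 to 40892, 39041 to 47401 and 22751 to 25519. The sums of the groups thus did not overlap at 10 and 18 h. The lowest NCFM sum at 4 h was that of array 3, where S100a8 read 1595, against 12078 and 12288 on arrays 1 and 2. That array was also the lowest of its group for Isg20, Bst2, Ifitm3 and Ifi27l2a. Over all members its median log2 level above the control mean was the highest of the group (2.14, against 1.72 and 1.92). Singly, Ltf fell at 10 and 18 h (-1.68 and -1.61, limma adjusted p = 0.0403 and 0.0491). Elane fell at 10 h (-0.52, adjusted p = 0.0142), and the other neutrophil markers passed at no time. The part of these differences in the changes of the effectors was not tested. Since RNA was taken from whole wells, fewer cells of a type and less RNA per cell cannot be told apart.

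With NCFM nearly the whole list rose together. The list was chosen with earlier results of these data known, so the shares of all genes beside the counts are a description. At 4 h 34 of the 38 members rose (limma, adjusted p under 0.05 over all genes) and none fell, where 5.27% of all genes rose and 13.1% fell. At 10 h 36 members rose, against 8.21% of all genes, and at 18 h 32, against 7.4%, again with no fall (16.5% and 16.3% of all genes fell). The median log2 change of the members was 1.97, 2.08 and 1.60 at the 3 times, beside -0.01, 0.01 and 0.00 over all genes. Rises of at least 2-fold numbered 31, 32 and 28 (all genes 2.04%, 2.62% and 2.16%). All NCFM arrays lay above all control arrays of the time for 35, 37 and 34 members (all genes 13.8%, 23.2% and 21.1%). With the replicate number as a block the rises were 35, 36 and 35. Without control array 1 of the time 28 members rose at 10 h, with a median change of 1.59, and 26 at 18 h, with a median of 1.15. The change was then smaller for 34 of the 36 and 30 of the 32 called members. The 32 members that rose at all 3 times span every role group, and 6 members, described in turn, did not: Zc3hav1, Adar, Ifitm3, Ifi30, Ifi27l2a and Epsti1.

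**Figure D1:**
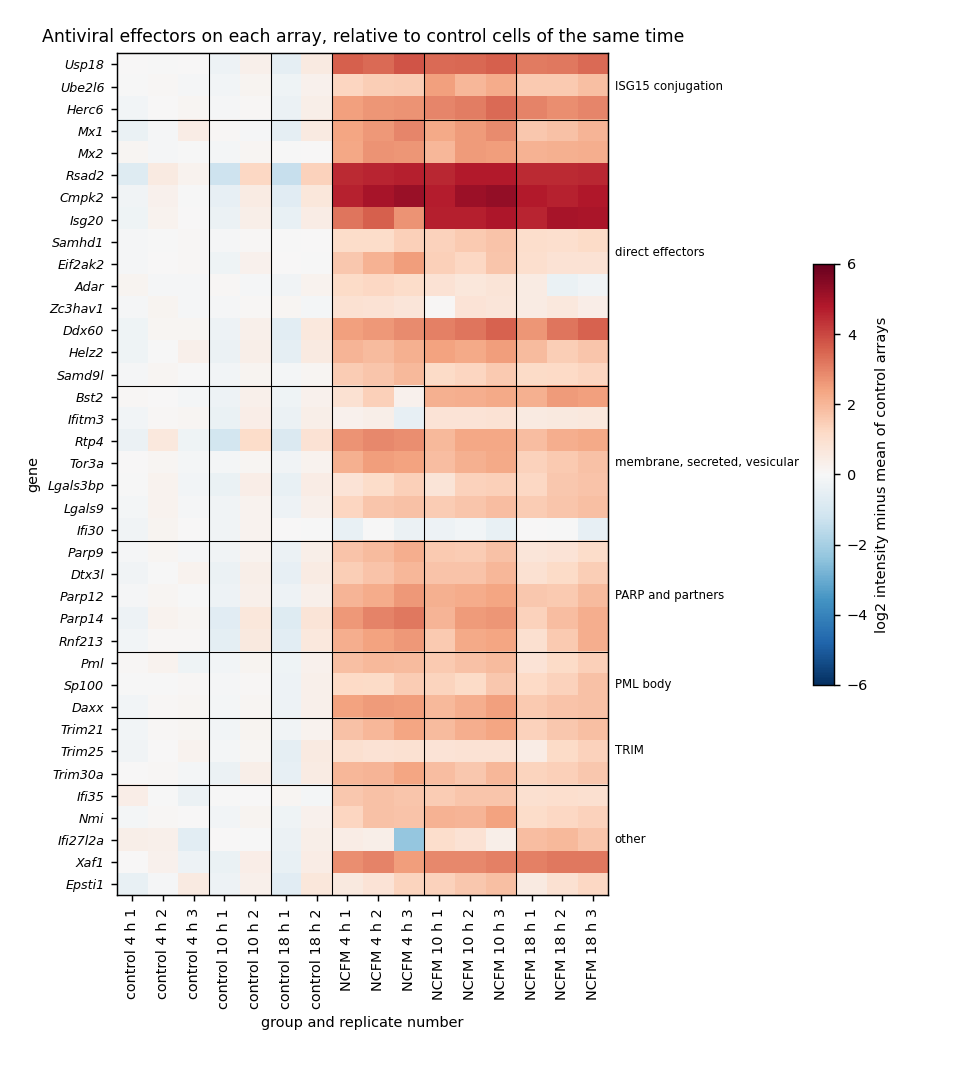
Each row is 1 of the 38 measured effectors and each column 1 of the 16 arrays; colour is the log2 intensity minus the mean of the control arrays of the same time. The 9 NCFM arrays are red for most members, the row of Ifi30 stays near 0 or below, the row of Adar pales at 18 h, and the control arrays numbered 1 at 10 and 18 h are paler or bluer than their partners.

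The machinery that attaches and removes ISG15, a ubiquitin-like protein, rose at every time in all 3 measured members. Usp18 takes ISG15 off proteins and also blocks the interferon receptor. Usp18 intensities in NCFM cells were 11680, 10028 and 13180 at 4 h, 11920, 12433 and 13532 at 10 h, and 10604, 10802 and 12808 at 18 h. Control arrays read 966, 943 and 970 at 4 h, 914 and 1410 at 10 h, and 831 and 1785 at 18 h. No control array came near the NCFM range, although the second array was the higher of the pair at 10 and 18 h. Usp18 rose by 3.59 on the log2 scale (SE 0.23, adjusted p = 1.81e-06) at 4 h, 3.47 (SE 0.26, 11.1-fold) at 10 h and 3.22 (SE 0.26) at 18 h. Ube2l6, the enzyme that carries ISG15 to its targets, changed least of the group. Ube2l6 intensities in NCFM cells were 715, 817 and 839 at 4 h, 1833, 1359 and 1601 at 10 h, and 946, 947 and 1123 at 18 h. Control arrays read 289, 311 and 276 at 4 h, 298 and 383 at 10 h, and 265 and 381 at 18 h. Its groups did not overlap at any time, and the 10 h arrays were the highest. Ube2l6 rose by 1.43 (SE 0.15) at 4 h, 2.23 (SE 0.17, adjusted p = 5.21e-06) at 10 h and 1.66 (SE 0.17) at 18 h. Herc6, a ligase of the ISG15 system in mice, rose by 2.60, 3.14 and 2.92 on the log2 scale. A further Herc6 probe set changed in another order (3.21, 2.77 and 2.41).

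Of the 12 direct effectors, which act on viral nucleic acid, nucleotides or particles, 12 rose at 4 h, 12 at 10 h and 10 at 18 h. Cmpk2, a mitochondrial nucleotide kinase, and Rsad2 (viperin), which makes a chain-terminating nucleotide, are neighbours in the RefSeq gene table and were among the largest changes. Cmpk2 intensities in NCFM cells were 7500, 9232 and 11042 at 4 h, 8604, 11490 and 12734 at 10 h, and 9789, 9017 and 10151 at 18 h. Control arrays read 259, 369 and 295 at 4 h, 234 and 454 at 10 h, and 223 and 590 at 18 h. The NCFM values stayed in a narrow band over time, far above the controls. The log2 change of Cmpk2 was 4.91 (SE 0.33, 30.0-fold, adjusted p = 2.42e-06) at 4 h, 5.05 (SE 0.37) at 10 h and 4.73 (SE 0.37) at 18 h. Without control array 1 the 18 h change of Cmpk2 was 4.03. Rsad2 rose by 4.56 (SE 0.66), 4.68 (SE 0.74) and 4.47 (SE 0.74). Without control array 1 the changes of Rsad2 were 3.45 at 10 h (adjusted p = 0.0146) and 3.08 at 18 h (adjusted p = 0.00983). Its NCFM arrays read 22833 to 28223, where the highest value in the whole table is 31573, and its control arrays spread from 445 to 3073. On 2 further Rsad2 probe sets the log2 changes lay between 5.52 and 6.17.

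Isg20, an exonuclease that degrades viral RNA, had a larger response at the later times. Isg20 intensities in NCFM cells were 2295, 3022 and 1610 at 4 h, 8085, 8091 and 9296 at 10 h, and 7187, 9313 and 9176 at 18 h. Control arrays read 213, 292 and 253 at 4 h, 253 and 403 at 10 h, and 223 and 419 at 18 h. The 4 h NCFM arrays lay between the controls and the later NCFM arrays, with no overlap on either side. Isg20 rose by 3.16 (SE 0.27, 8.92-fold) at 4 h, 4.73 (SE 0.30, 26.5-fold) at 10 h and 4.80 (SE 0.30, 27.8-fold, adjusted p = 1.92e-06) at 18 h.

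Adar, the enzyme that edits adenosine to inosine in double-stranded RNA, went the other way. Adar intensities in NCFM cells were 2027, 2215 and 2014 at 4 h, 1961, 1678 and 1812 at 10 h, and 1409, 757 and 882 at 18 h. Control arrays read 1028, 868 and 887 at 4 h, 1112 and 1014 at 10 h, and 861 and 1189 at 18 h. At 4 and 10 h every NCFM array was above every control array, while at 18 h NCFM arrays 2 and 3 fell among or below the controls and array 1 did not. Adar rose at 4 h by 1.17 (SE 0.19, adjusted p = 0.00116) and at 10 h by 0.77 (SE 0.21, adjusted p = 0.0187), and at 18 h the log2 change was -0.05 (SE 0.21, adjusted p = 0.902). The 10 h call was lost without control array 1 (adjusted p = 0.0771) or control array 2 (adjusted p = 0.0917). On arrays numbered 2 and 3 alone, where array 2 is the only control at 18 h and the higher of the pair, Adar was lower by 0.54 at 18 h. Its 2 further probe sets did not follow: they rose at 18 h too, by 1.52 (SE 0.29, adjusted p = 0.00279 over all probe sets) and 0.71 (SE 0.19, adjusted p = 0.0197), so the 18 h value of Adar depends on the probe set.

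Eif2ak2 (PKR), the kinase that stops translation when it meets double-stranded RNA, rose at every time, on its main probe set by less at each later one. A further probe set changed in the same order (2.28, 1.78 and 1.27), and another did not (1.61, 1.17 and 1.34). Without the replicate block the difference of its effect between 18 and 4 h did not pass the test. Eif2ak2 intensities in NCFM cells were 773, 1070 and 1466 at 4 h, 784, 680 and 932 at 10 h, and 527, 473 and 475 at 18 h. Control arrays read 241, 260 and 268 at 4 h, 247 and 344 at 10 h, and 266 and 253 at 18 h. All NCFM arrays were above the controls, and at 4 h they were also the most spread. Eif2ak2 rose by 2.06 (SE 0.20, adjusted p = 3.19e-05), 1.44 (SE 0.22) and 0.92 (SE 0.22, adjusted p = 0.00941). Without control 18 h array 2 the last call was lost (adjusted p = 0.0609). Zc3hav1 (ZAP), which binds CpG-rich viral RNA, was on its main probe set the least changed of the group beside Adar. A further Zc3hav1 probe set, at 428 to 1755, changed more at 4 and 10 h. Its log2 changes were 1.43, 1.08 and 0.535 (limma adjusted p = 0.000223, 0.00218 and 0.0761 over all probe sets). Zc3hav1 intensities in NCFM cells were 2757, 2709 and 2455 at 4 h, 1834, 3076 and 2864 at 10 h, and 2458, 2706 and 2289 at 18 h. Control arrays read 1393, 1649 and 1411 at 4 h, 1670 and 1812 at 10 h, and 1881 and 1584 at 18 h. The NCFM arrays were above the controls at each time, by a small margin and least on array 1 at 10 h. It rose by 0.83 (SE 0.16, adjusted p = 0.00361) at 4 h and by 0.54 (SE 0.18, adjusted p = 0.046) at 10 h. The 18 h change of 0.52 (SE 0.18) missed the threshold (adjusted p = 0.0538), and passed it with the replicate block (0.54, adjusted p = 0.0418). The 10 h call was lost without NCFM array 2 (adjusted p = 0.153) or 3 (0.144), and without control array 1 (0.239) or 2 (0.0922).

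The remaining direct effectors rose at all 3 times. Ddx60, a helicase that aids sensing of viral RNA, rose by 2.63, 3.26 and 3.13 on the log2 scale (2.51 at 18 h without control array 1), and the helicase-like coactivator Helz2 by 2.02, 2.41 and 1.67. Mx1 and Mx2, dynamin-like proteins that trap viral particles, rose by 2.65, 2.53 and 1.79, and by 2.56, 2.36 and 2.12. The RefSeq gene table lists both as transcribed pseudogenes. Samd9l, a translation inhibitor, rose by 1.71, 1.34 and 1.22, and Samhd1, which breaks down deoxynucleotides, by 1.21, 1.55 and 1.09.

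**Figure D2:**
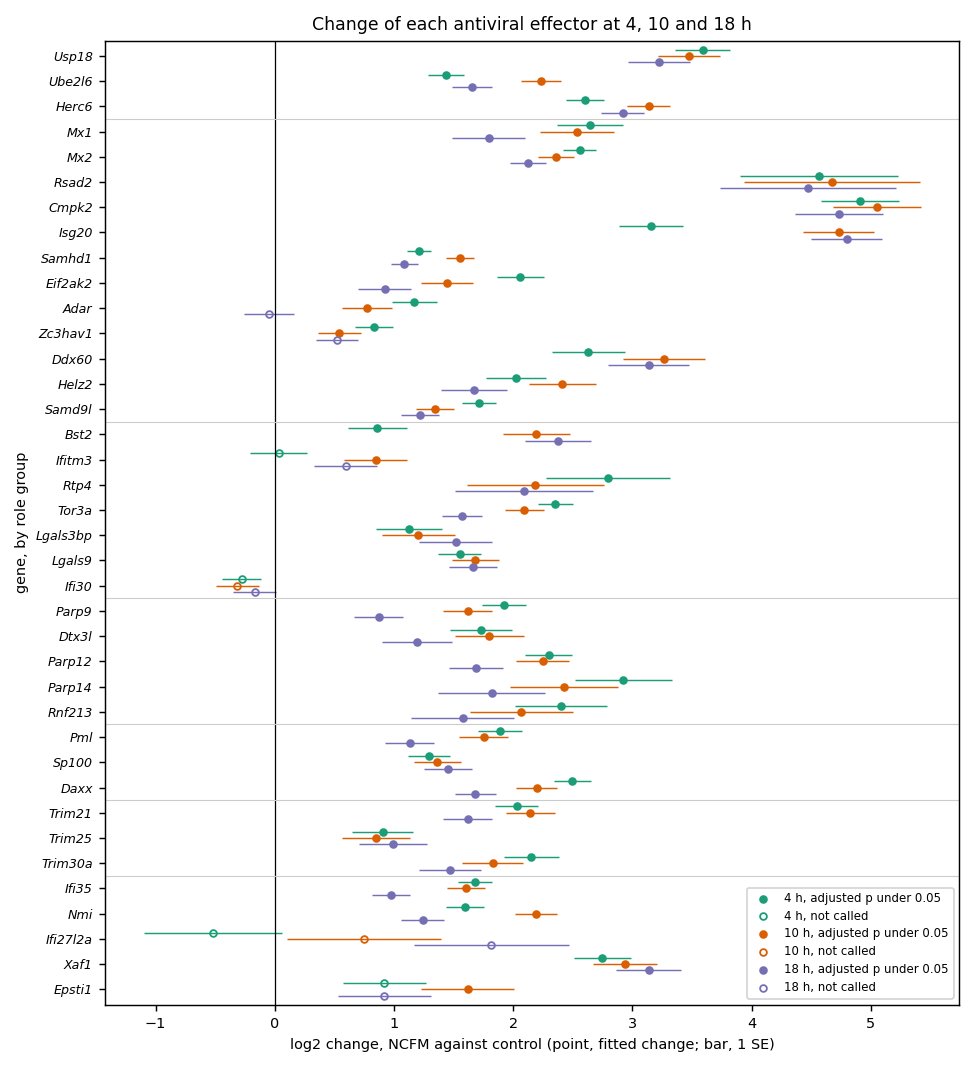
Log2 change of each of the 38 effectors, NCFM against control, at 4, 10 and 18 h (point, fitted change; bar, 1 SE; filled, adjusted p under 0.05). Cmpk2, Rsad2 and Isg20 reach beyond 4 on the log2 scale, most members lie between 1 and 3, and the open symbols belong to Adar, Zc3hav1, Ifitm3, Ifi30, Ifi27l2a and Epsti1.

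Of the 7 membrane, secreted and vesicular proteins 5, 6 and 5 rose at 4, 10 and 18 h. Rtp4, a Golgi chaperone of receptors, had the highest mean change. Rtp4 intensities in NCFM cells were 6649, 7684 and 7207 at 4 h, 6798, 8846 and 9013 at 10 h, and 6637, 8294 and 8879 at 18 h. Control arrays read 802, 1599 and 860 at 4 h, 839 and 3830 at 10 h, and 1001 and 3429 at 18 h. All NCFM arrays were above all controls, but the controls spread widely and array 2 was the higher one each time. Rtp4 rose by 2.79 (SE 0.52, adjusted p = 0.00277), 2.19 (SE 0.58, adjusted p = 0.0157) and 2.09 (SE 0.58, adjusted p = 0.0204). The 10 h call was lost without control array 1 (1.09, adjusted p = 0.246). At 18 h it was lost without control array 1 (1.20, adjusted p = 0.204), NCFM array 2 (0.0563) or NCFM array 3 (0.0556).

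Bst2 (tetherin) holds budding virus at the cell surface. Bst2 intensities in NCFM cells were 3298, 4738 and 2120 at 4 h, 9241, 9581 and 10218 at 10 h, and 9156, 12281 and 11677 at 18 h. Control arrays read 1886, 1810 and 1624 at 4 h, 1732 and 2577 at 10 h, and 1775 and 2509 at 18 h. At 4 h NCFM array 3 was close to the controls, and from 10 h on all NCFM arrays were far above them. Bst2 rose by 0.86 (SE 0.25, adjusted p = 0.0314) at 4 h, 2.19 (SE 0.28) at 10 h and 2.38 (SE 0.28, 5.19-fold, adjusted p = 0.000108) at 18 h. The 4 h call was lost without NCFM array 1 (adjusted p = 0.0751) or 2 (0.11), and without any of the 3 control arrays (0.0558, 0.0786 and 0.104). Bst2 also marks plasmacytoid dendritic cells. The intensities of 4 other markers of that cell type summed to between 685 and 802 on all 16 arrays. Singly, Siglech read 118 to 147, Ccr9 90 to 193, Klk1 259 to 326 and Cox6a2 165 to 222. The median of a single probe set is 162 to 167 on these arrays.

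Ifitm3, which stops viruses from fusing with endosomes, was bright in all groups. Ifitm3 intensities in NCFM cells were 13575, 14671 and 8161 at 4 h, 18519, 18527 and 18948 at 10 h, and 17852, 18293 and 18935 at 18 h. Control arrays read 10142, 11935 and 12552 at 4 h, 7947 and 13578 at 10 h, and 9625 and 15382 at 18 h. At 4 h the groups overlapped because NCFM array 3 was the lowest of the 6, and at 10 and 18 h they did not overlap. The log2 change was 0.03 (SE 0.24, adjusted p = 0.946), then 0.85 (SE 0.27, adjusted p = 0.0362) and 0.59 (SE 0.27, adjusted p = 0.133). The 10 h rise was lost without control array 1 (adjusted p = 0.394) or 1 of the NCFM arrays (0.0628, 0.0788 and 0.0859). Ifi30 (GILT), a lysosomal thiol reductase of antigen processing, was the one member with a lower mean in NCFM cells at all 3 times. Ifi30 intensities in NCFM cells were 4100, 5421 and 4294 at 4 h, 4533, 5060 and 4122 at 10 h, and 6142, 6089 and 4270 at 18 h. Control arrays read 4839, 6186 and 5682 at 4 h, 4967 and 6470 at 10 h, and 6268 and 5941 at 18 h. The groups overlapped at all 3 times, at 4 and 10 h by NCFM array 2 alone. The log2 changes of -0.28 (SE 0.16), -0.32 (SE 0.18) and -0.17 (SE 0.18) did not pass the test (adjusted p = 0.274, 0.229 and 0.548).

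The other 3 of the group rose at every time. Tor3a, an ATPase of the endoplasmic reticulum, rose by 2.35, 2.09 and 1.57, and Lgals9, a secreted galectin, by 1.55, 1.68 and 1.66. Lgals3bp, a secreted glycoprotein, rose by 1.12, 1.20 and 1.52. Its 4 h call was lost without NCFM array 3 (adjusted p = 0.0547) or control array 3 (0.0553), and its 10 h call without control array 1 (0.19).

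All 5 ADP-ribosyl transferases and ligase partners rose at every time. The fitted change was smaller at 18 h than at 4 h in all 5 (49.6% of all genes), but the difference passed the test for none of them, with the block for 2, Parp9 and Parp14. A further probe set of Dtx3l changed by 1.62 at 4 h and 1.75 at 18 h, in the other order. Parp14, Dtx3l and Parp9 lie side by side in the RefSeq gene table; Parp9 and the ubiquitin ligase Dtx3l work as a complex. Parp14 intensities in NCFM cells were 4994, 6497 and 7377 at 4 h, 3780, 5356 and 5730 at 10 h, and 2531, 3464 and 4367 at 18 h. Control arrays read 657, 941 and 885 at 4 h, 572 and 1442 at 10 h, and 559 and 1634 at 18 h. Every NCFM array of Parp14 was above every control, and control array 2 read more than its partner at 10 and 18 h. Parp14 rose by 2.92 (SE 0.40, adjusted p = 0.000404), 2.42 (SE 0.45) and 1.82 (SE 0.45, adjusted p = 0.0118). Parp9 intensities in NCFM cells were 3788, 4378 and 5278 at 4 h, 4011, 3864 and 4578 at 10 h, and 2406, 2568 and 3193 at 18 h. Control arrays read 1121, 1273 and 1122 at 4 h, 1155 and 1573 at 10 h, and 1166 and 1871 at 18 h. The groups of Parp9 did not overlap, and its 18 h NCFM arrays were all below its 4 h and 10 h ones. Parp9 rose by 1.92 (SE 0.18, adjusted p = 3.3e-05), 1.62 (SE 0.21) and 0.87 (SE 0.21, adjusted p = 0.00906). Dtx3l rose by 1.73, 1.80 and 1.19, Parp12 by 2.30, 2.25 and 1.69, and Rnf213, a giant ubiquitin ligase, by 2.40, 2.07 and 1.57. At 18 h 4 of these calls were lost without control array 1, with adjusted p = 0.105 for Parp9, 0.12 for Dtx3l, 0.133 for Parp14 and 0.194 for Rnf213. The changes of Parp14 were then 1.76 at 10 h and 1.05 at 18 h, and those of Rnf213 1.47 and 0.95. The Rnf213 call at 18 h was also lost without NCFM array 2 (0.0519) or 3 (0.0687), and that at 10 h without control array 1 (0.0805).

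Proteins of the PML nuclear body, a nuclear assembly that silences viral genomes, rose at all 3 times in all 3 members. Daxx intensities in NCFM cells were 4232, 4564 and 4532 at 4 h, 3506, 4061 and 4870 at 10 h, and 2798, 3056 and 3123 at 18 h. Control arrays read 696, 819 and 857 at 4 h, 833 and 966 at 10 h, and 745 and 1163 at 18 h. For Daxx, a histone chaperone of the body, the groups were far apart at every time. Daxx rose by 2.50 (SE 0.15, 5.64-fold, adjusted p = 1.5e-06), 2.20 (SE 0.17) and 1.68 (SE 0.17). Sp100 intensities in NCFM cells were 1027, 1010 and 1309 at 4 h, 1497, 1308 and 1818 at 10 h, and 1192, 1367 and 1740 at 18 h. Control arrays read 444, 440 and 472 at 4 h, 557 and 632 at 10 h, and 421 and 636 at 18 h. Sp100, another component, showed less distance but no overlap. It rose by 1.29 (SE 0.18, adjusted p = 0.0004), 1.36 (SE 0.20) and 1.45 (SE 0.20), and Pml itself rose by 1.89, 1.75 and 1.13.

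The 3 TRIM ubiquitin ligases rose at all times. Trim21, an antibody receptor inside cells, had the highest mean change. Trim21 intensities in NCFM cells were 1934, 2273 and 2961 at 4 h, 2211, 2677 and 3059 at 10 h, and 1583, 1890 and 2148 at 18 h. Control arrays read 509, 607 and 621 at 4 h, 537 and 659 at 10 h, and 522 and 704 at 18 h. No control array reached the NCFM range. Trim21 rose by 2.03 (SE 0.18, adjusted p = 2.09e-05), 2.14 (SE 0.20) and 1.62 (SE 0.20). Trim25, which activates the RNA sensor RIG-I, had the lowest. Trim25 intensities in NCFM cells were 4559, 4268 and 4505 at 4 h, 3778, 3880 and 3827 at 10 h, and 3812, 6101 and 7209 at 18 h. Control arrays read 2027, 2384 and 2769 at 4 h, 1943 and 2325 at 10 h, and 1928 and 4004 at 18 h. Control array 2 at 18 h lay above NCFM array 1, the only overlap of the group. Trim25 rose by 0.90 (SE 0.25, adjusted p = 0.0276), 0.85 (SE 0.28, adjusted p = 0.0471) and 0.99 (SE 0.28, adjusted p = 0.0248). Leaving out 1 array ended the 4 h call in 5 of 6 cases, all but control array 3 (adjusted p = 0.0673, 0.0599, 0.0686, 0.0899 and 0.0749). At 10 h any of the 5 did so (0.0764, 0.103, 0.101, 0.266 and 0.0824), and at 18 h NCFM array 2 (0.0772), NCFM array 3 (0.0833) or control array 1 (0.262). A further Trim25 probe set, at 397 to 2589, changed by 2.05 (SE 0.17), 2.31 (SE 0.19) and 1.66 (SE 0.19). Trim30a, a mouse TRIM protein that restrains NF-kB signalling, rose by 2.15, 1.83 and 1.47.

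Of the 5 other interferon-induced proteins measured, 3 rose at every time. Xaf1, which promotes apoptosis, had the highest mean change. Xaf1 intensities in NCFM cells were 4277, 4869 and 3608 at 4 h, 7214, 7245 and 7790 at 10 h, and 7138, 7925 and 7900 at 18 h. Control arrays read 646, 744 and 516 at 4 h, 725 and 1291 at 10 h, and 631 and 1200 at 18 h. Its NCFM arrays formed a tight set at 10 and 18 h, above the 4 h arrays. Xaf1 rose by 2.75 (SE 0.24, 6.72-fold, adjusted p = 1.68e-05), 2.94 (SE 0.27) and 3.14 (SE 0.27, 8.79-fold). Ifi35 and Nmi, partners that modulate sensor signalling, rose by 1.68, 1.60 and 0.97, and by 1.59, 2.19 and 1.24.

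Ifi27l2a, a small mitochondrial protein, did not pass the test at any time. Ifi27l2a intensities in NCFM cells were 5062, 4729 and 753 at 4 h, 11012, 9511 and 6706 at 10 h, and 10554, 11231 and 9207 at 18 h. Control arrays read 4753, 4638 and 2391 at 4 h, 5302 and 5293 at 10 h, and 2298 and 3720 at 18 h. The groups overlapped at 4 h, where NCFM array 3 and control array 3 were both low, and separated at 10 and 18 h. The log2 change was -0.52 (SE 0.58, adjusted p = 0.595), 0.75 (SE 0.65, adjusted p = 0.43) and 1.82 (SE 0.65, adjusted p = 0.0621). With the replicate block the 18 h change was 2.19 (adjusted p = 0.00445). Epsti1, known from stroma and induced by interferon, rose at 10 h. Epsti1 intensities in NCFM cells were 3213, 3796 and 5490 at 4 h, 6449, 7554 and 8568 at 10 h, and 4772, 6190 and 7744 at 18 h. Control arrays read 1560, 2054 and 3096 at 4 h, 1996 and 2968 at 10 h, and 2045 and 5124 at 18 h. NCFM arrays were above all controls at 4 and 10 h, while at 18 h control array 2 exceeded NCFM array 1. The log2 change was 0.92 (SE 0.35, adjusted p = 0.0917), 1.62 (SE 0.39, adjusted p = 0.00953) and 0.92 (SE 0.39, adjusted p = 0.113; 0.26 at 18 h without control array 1, adjusted p = 0.694). With the replicate block Epsti1 rose at 4 h (0.92, adjusted p = 0.00376) and at 18 h (0.73, adjusted p = 0.022) too. The 10 h call was lost without control array 1 (adjusted p = 0.114), and at 18 h it rose without control array 2 (adjusted p = 0.0206).

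**Figure D3:**
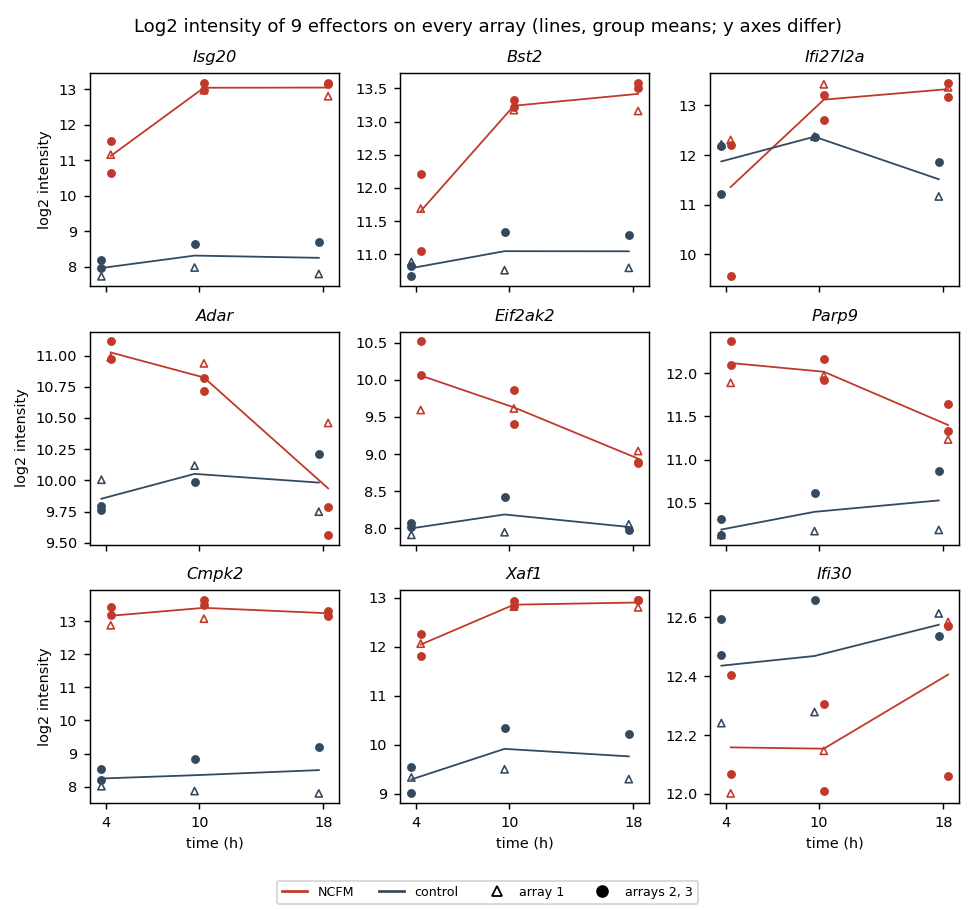
Log2 intensity of 9 effectors on every array against time (red, NCFM; dark, control; open triangle, array 1; lines, group means; y axes differ). Isg20 and Bst2 climb from 4 to 10 h, Adar, Eif2ak2 and Parp9 decline by 18 h, Cmpk2 stays level, and Ifi30 overlaps its controls at every time.

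Within NCFM cells the effectors did not share one time course. The highest group mean was at 4 h for 9 members (Mx1, Mx2, Eif2ak2, Adar, Zc3hav1, Samd9l, Parp9, Parp14 and Daxx), at 10 h for 22 and at 18 h for 7 (Isg20, Bst2, Lgals3bp, Ifi30, Trim25, Ifi27l2a and Xaf1). As shares of 38 these are 23.7%, 57.9% and 18.4%, beside 32.7%, 23.5% and 43.8% of all genes. From 4 to 10 h 7 members rose in NCFM cells and none fell (all genes 2.4% rose and 3.88% fell). Isg20 rose by 1.92 (SE 0.27, adjusted p = 0.00149), Bst2 by 1.59 (SE 0.25), Herc6 by 1.12 (SE 0.16) and Ube2l6 by 1.01 (SE 0.15). Smaller rises were those of Nmi (0.82), Lgals9 (0.74) and Samhd1 (0.42). For Herc6 the rise depends on the probe set. On a further set NCFM arrays read 1423, 1986 and 2510 at 4 h and 1652, 1440 and 2082 at 10 h. On the remaining further sets of Herc6 all 10 h arrays were above all 4 h arrays. With the replicate block 13 members rose (4.94% of all genes). Without NCFM 10 h array 3 the count was 4. From 10 to 18 h 4 members fell in NCFM cells and none rose (all genes 1.18% fell and 1.61% rose): Nmi by 0.93 (SE 0.16, adjusted p = 0.0106), Adar by 0.89 (SE 0.19), Ube2l6 by 0.66 (SE 0.15) and Samhd1 by 0.45 (SE 0.10). With the replicate block 11 fell (3.41% of all genes). The 4 falls became 0 without NCFM 10 h array 3 or NCFM 18 h array 2, 1 without NCFM 18 h array 3, and 2 without NCFM 10 h array 2 or NCFM 18 h array 1. Nmi, Ube2l6 and Samhd1 are in both counts, with a rise from 4 to 10 h and a fall afterwards.

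In control cells no member passed the test between any pair of times in limma, and 0% of all genes did. At an unadjusted p under 0.05 there were 5 members from 4 to 10 h, 0 from 10 to 18 h and 2 from 4 to 18 h (3.04%, 3.59% and 3.07% of all genes), all of them higher at the later time. The median change of the members in control cells was 0.21 from 4 to 10 h and 0.25 from 4 to 18 h. Of the 38 members 37 were higher at 18 h than at 4 h (39.1% of all genes were lower). With arrays numbered 1 left out, array 2 is the only control at 18 h, and 34 members were above the control mean on it. On arrays numbered 2 and 3 alone 2 members, Rsad2 and Lgals3bp, rose from 4 to 18 h.

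The test of whether the NCFM effect itself differed between times called few members. The effect at 18 h minus that at 4 h passed for 2 members upward, Isg20 and Bst2 (all genes 1.19%), and 1 downward, Adar (all genes 2.22%). It was 1.64 (SE 0.40, adjusted p = 0.0463) for Isg20, 1.52 (SE 0.37, adjusted p = 0.0481) for Bst2 and -1.22 (SE 0.28, adjusted p = 0.0377) for Adar. None of these 3 calls held under every alternative. Over the alternatives, adjusted p ranged from 0.00675 to 0.159 for Isg20, 0.0102 to 0.167 for Bst2 and 0.0024 to 0.125 for Adar. The direction was the same in all of them. With the replicate block 12 members differed, 3 upward (Isg20, Bst2 and Ifi27l2a) and 9 downward (Mx1, Samd9l, Eif2ak2, Tor3a, Parp9, Parp14, Daxx, Trim21 and Adar), beside 3.23% and 5.93% of all genes. On arrays numbered 2 and 3 alone 12 members differed as well, but none upward (2.52% of all genes) and 12 downward (6.23%): Mx2, Rsad2, Cmpk2, Eif2ak2, Adar, Tor3a, Parp9, Parp14, Rnf213, Daxx, Trim30a and Ifi35. Isg20 and Bst2 did not pass there. Control cells at 18 h are in that subset a single array, on which the median of the members was 0.340 above the control mean. In the fit with the replicate block the difference was -1.23 (SE 0.26, adjusted p = 0.0149) for Eif2ak2 and -1.13 (SE 0.20, adjusted p = 0.00713) for Parp9. With the block it was -1.23 (SE 0.32, adjusted p = 0.0392) for Parp14 and -0.87 (SE 0.15, adjusted p = 0.00593) for Daxx. Without the block the difference was -1.14 (SE 0.29, adjusted p = 0.0573) for Eif2ak2, -1.05 (SE 0.28, adjusted p = 0.0609) for Parp9 and -0.81 (SE 0.23, adjusted p = 0.0837) for Daxx. Eif2ak2 then passed without NCFM 4 h array 1 (adjusted p = 0.0115), Parp9 and Daxx without control 18 h array 1 (0.0225 and 0.0184) and Ifi35 without control 4 h array 1 (0.01). Of the 38 members 25 had a smaller change at 18 h than at 4 h (49.6% of all genes), with a median difference of -0.35.

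The 3 calls also moved with single arrays. Without NCFM 4 h array 3, NCFM 18 h array 2 or 3, or control 4 h array 2 or 3, none of the 3 passed, with adjusted p = 0.0844, 0.117, 0.0947, 0.117 and 0.0949 for Isg20, 0.059, 0.121, 0.0969, 0.108 and 0.0813 for Bst2, and 0.0643, 0.0822, 0.083, 0.096 and 0.0848 for Adar. Isg20 was lost without NCFM 4 h array 1 (0.0724), control 4 h array 1 (0.0558) or control 18 h array 1 (0.159) too. Bst2 was lost without the same 3 (0.0731, 0.0896 and 0.158) and without control 18 h array 2 (0.0511). Adar was also lost without NCFM 4 h array 1 (0.0581) or 2 (0.0759), or control 18 h array 2 (0.125). For the effect at 10 h minus 4 h no member passed (all genes 0.506%), though 7 had an unadjusted p under 0.05 (10.5% of all genes), all larger at 10 h. With the block Isg20 and Bst2 passed, both upward (0.962% of all genes). For 18 h minus 10 h no member passed either (all genes 0.0055%), and 7 had an unadjusted p under 0.05 (7.46% of all genes), all smaller at 18 h. With the block Nmi passed, downward (0.28% of all genes).

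**Figure D4:**
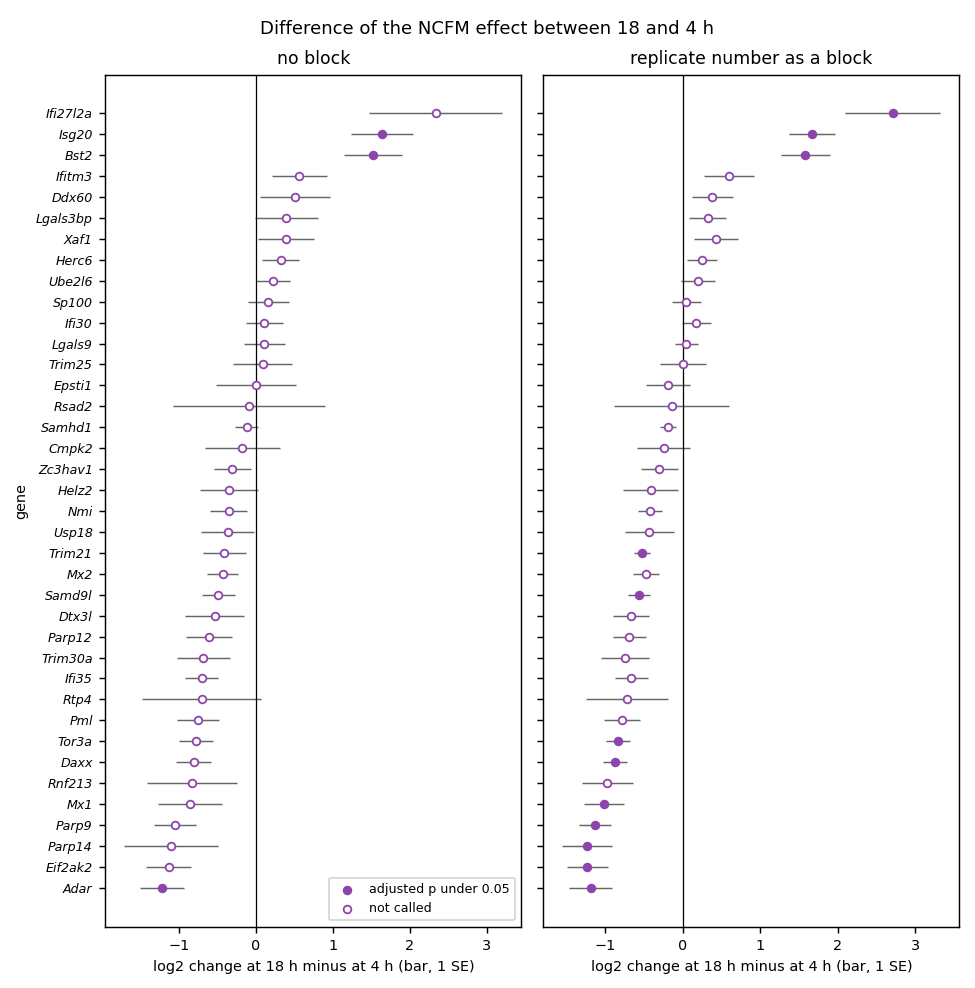
Difference of the NCFM effect, 18 h minus 4 h, for each of the 38 effectors (point, log2 difference; bar, 1 SE; filled, adjusted p under 0.05), without and with the replicate number as a block. Isg20 and Bst2 lie right of 0 and Adar left of it in both panels, and 12 points are filled with the block against 3 without it.

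Further probe sets mostly went the same way as the main ones. Of 36 further probe sets of 21 members 31 rose at 4 h, 31 at 10 h and 26 at 18 h, and none fell. Dim sets of Rnf213 (182 to 230), Xaf1 (149 to 200) and Zc3hav1 (160 to 206) changed by 0.25 or less on the log2 scale and passed at no time, while the main sets of Rnf213 and Xaf1 rose. For Samhd1 2 of 4 further sets rose at 18 h (0.79 and 0.89) and 2 did not pass (0.02 and 0.31). Members with the ISRE letters in the promoter window had a median log2 change of 2.04, 1.99 and 1.64 over the 8, and members without them of 1.69, 1.78 and 1.35 over 22, with ranges that overlap widely (0.03 to 4.56 and -0.28 to 4.91 at 4 h). Among the members with the letters, the effect at 18 h minus that at 4 h ran from -1.14 (Eif2ak2) to 1.52 (Bst2).

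The genes upstream of the effectors moved unequally. Beside the counts of each list below, 5.27%, 8.21% and 7.4% of all genes rose at 4, 10 and 18 h. Falls were 13.1%, 16.5% and 16.3% of all genes. Among interferon ligands and receptors (7 measured) 1 rose and 1 fell at 4 h, 2 and 1 at 10 h, and 3 and 1 at 18 h. Ifnb1 intensities in NCFM cells were 1396, 1690 and 1484 at 4 h, 567, 249 and 308 at 10 h, and 314, 251 and 241 at 18 h. Control arrays read 142, 147 and 134 at 4 h, 137 and 148 at 10 h, and 154 and 160 at 18 h. Ifnb1, interferon beta, was thus highest on the 4 h arrays and lower later, though above its controls without overlap at every time. It rose by 3.43 (SE 0.23, 10.8-fold, adjusted p = 2.16e-06) at 4 h, 1.30 (SE 0.25, adjusted p = 0.00274) at 10 h and 0.77 (SE 0.25, adjusted p = 0.0452) at 18 h. The difference of its effect, 18 h minus 4 h, was -2.66 (SE 0.34, adjusted p = 0.00221). The 18 h call was lost without any 1 of the 5 arrays (adjusted p = 0.118, 0.0799, 0.0619, 0.143 and 0.142). In the fit with the block Ifnar1, a chain of the type I receptor, rose at each time (0.42, 0.32 and 0.42, adjusted p = 0.000582, 0.00561 and 0.00107). Ifnar2, the other chain, then rose at 10 h too (0.52, adjusted p = 0.0121). The 10 h rise of Ifna4 was lost with the block (adjusted p = 0.0554). At 10 h Ifna4 read 120, 121 and 144 on NCFM arrays and 100 and 113 on control arrays. All of these lie below the array medians of 162 to 167. Ifngr1, a chain of the interferon gamma receptor, fell by 1.21, 1.52 and 1.72. Its 4 h call was lost without NCFM array 1 (adjusted p = 0.0579), control array 2 (0.0563) or control array 3 (0.0706), and its 10 h call without control array 2 (0.0568).

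Of 5 signal transducers 3 rose at 4 h, 3 at 10 h and 1 at 18 h. Stat2 rose by 2.56, 2.08 and 1.92. With the block the kinases Jak2, at 18 h (0.42, adjusted p = 0.023), and Tyk2, at 10 h (0.37, adjusted p = 0.0162), rose too. Irf9 rose by 1.11 and 0.63 and had a change of 0.38 (adjusted p = 0.149) at 18 h. Of 6 interferon regulatory factors 2 rose and 1 fell at each time. Irf7, the factor that amplifies interferon production, kept a high level. Irf7 intensities in NCFM cells were 3365, 4127 and 4266 at 4 h, 8429, 9362 and 9718 at 10 h, and 9523, 9865 and 10397 at 18 h. Control arrays read 354, 469 and 343 at 4 h, 439 and 856 at 10 h, and 431 and 1142 at 18 h. The NCFM arrays of Irf7 were higher at 10 and 18 h than at 4 h and never met the controls. Irf7 rose by 3.34 (SE 0.31, adjusted p = 2.33e-05), 3.90 (SE 0.34) and 3.82 (SE 0.34, 14.1-fold; 3.12 without control 18 h array 1). Irf1 rose by 2.14, 1.36 and 1.01, and Irf3, the constitutive factor, fell by 0.46, 0.64 and 0.63. The 18 h call of Irf1 was lost without NCFM array 2 (adjusted p = 0.0501) or control array 1 (0.156). The 10 h call of Irf9 was lost without NCFM array 1 (0.0632), NCFM array 3 (0.0738) or control array 1 (0.221), and at 18 h Irf9 rose without control array 2 (0.0344).

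In the Toll receptor 2 list (6 of 7 measured) 1 gene rose at 4 h, 3 at 10 h and 2 at 18 h, with 1 fall at 10 h. Tlr2 intensities in NCFM cells were 3504, 6357 and 8754 at 4 h, 4004, 5546 and 6339 at 10 h, and 2977, 2681 and 2782 at 18 h. Control arrays read 2737, 3904 and 4367 at 4 h, 2839 and 5349 at 10 h, and 3689 and 4407 at 18 h. For Tlr2, the receptor named in the title, the groups overlapped at 4 and 10 h, and at 18 h all 3 NCFM arrays were below both controls. The log2 change was 0.69 (SE 0.32, adjusted p = 0.168), 0.42 (SE 0.36, adjusted p = 0.426) and -0.52 (SE 0.36, adjusted p = 0.332). With the replicate block the 4 h change passed (0.69, adjusted p = 0.031), as it did without NCFM 4 h array 1 (adjusted p = 0.0283). With the block Tlr1 (1.05, adjusted p = 0.0018) and Tlr6 (0.65, adjusted p = 0.0045), the partner receptors of Tlr2, also rose at 4 h. Tirap, an adaptor, then fell at 4 h (-0.29, adjusted p = 0.0456) and at 18 h (-0.35, adjusted p = 0.0327), and Tlr6 rose at 18 h (0.53, adjusted p = 0.0229). Myd88, the adaptor of these receptors, rose by 1.28 and 0.62 and had a change of 0.12 (adjusted p = 0.574) at 18 h. Of the 5 brakes on interferon signalling, Socs1 rose by 2.75, 2.18 and 2.18 and Socs3 by 3.49, 2.95 and 3.40, which are 2 rises of 5 at each time (without control array 1 Socs3 rose by 3.99 at 18 h). Ptpn11 (SHP2), a phosphatase, fell at 18 h (-0.23, SE 0.07, adjusted p = 0.0279), a call that was lost under 10 of 17 alternatives and a change that turned to 0.04 with the probe sets of the gene averaged.

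**Figure D5:**
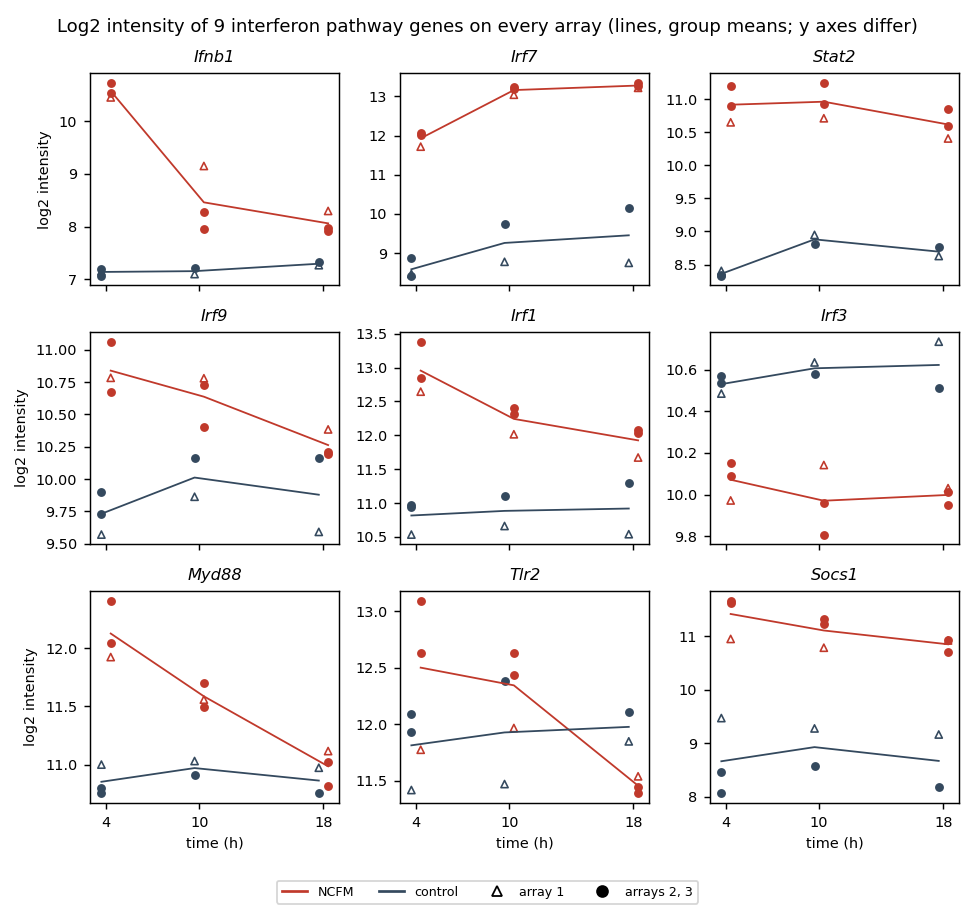
Log2 intensity of 9 genes of the interferon and Toll pathways on every array against time (red, NCFM; dark, control; open triangle, array 1; lines, group means; y axes differ). Ifnb1 falls from its 4 h level toward the controls while Irf7 stays high, Irf3 lies below its controls, and Tlr2 overlaps its controls at 4 and 10 h.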

How the data were processed

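RNA of mouse dendritic cells was labelled with biotin and read on 16 single-channel arrays. The authors deposited an intensity on a linear scale for each of 45101 probe sets, as whole numbers from 42 to 31573. Array medians lie between 162 and 167, so the deposited arrays share one scale. The steps from probes to these values (background, summary, normalization) are not given in the sources used here. Precision is limited by how many arrays each group has.

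Intensities were taken to log2. Probe sets naming 1 gene (34945, of which 34741 matched the RefSeq gene table) were kept, those naming several (932), unlisted ones (9160) and controls (64) were left out, and the probe set with the highest mean stands for a gene, which gave 18193 genes. Every gene was fitted in limma 3.58.1 (R 4.3.3; lmFit, eBayes; a mean per group over all 16 arrays; 10 residual degrees of freedom), with two-sided p-values, Benjamini-Hochberg adjustment over the 18193 genes and a call where the adjusted p is under 0.05. Further probe sets were fitted over all probe sets. A fold is 2 to the power of the log2 change. The fit was tested on simulated data. Plots were made in matplotlib 3.10.9 under Python 3.11.15. The file behind the values names no genome build, so coordinates are given only for the promoter sequences of the RefSeq table.

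The members, role groups, pathway and marker lists were chosen with earlier results of these data known. Values on every array are given for the members with the highest and the lowest mean change of each role group, for members that did not rise at every time, for the 3 highest and 3 lowest differences of the effect between 18 and 4 h, and for Ifnb1, Irf7 and Tlr2. A further gene of that rule is not reported here. Other members are given by their changes.

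Groups share replicate numbers in the labels. Whether the numbers pair the arrays was checked from the deviations from the group means: all 36 pairs of the same number correlated over 0.1 across genes (0.192 to 0.746, median 0.42), and the 70 pairs of different numbers lay between -0.746 and 0.726. The numbers were therefore taken to pair the arrays. The main fit has no block, so its SEs and p-values leave this pairing out. The fit with the replicate number as a block is given where it changes a call. Other alternatives were quantile normalization, median centring, centring on 45 spike-in probe sets, subtraction of percentile 5 of each array (floor 16), a pseudocount of 16, probe sets of a gene averaged, an intensity trend with robust variance, the removal of dim genes, only the groups compared, adjusted p under 0.01 and each array left out in turn. Arrays numbered 2 and 3 alone were added after seeing the data.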

Additional observations from a re-analysis of the deposited data

Results flagged for a closer look

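The effect of NCFM differed between 18 h and 4 h for 3 effectors in the test of the difference itself, without the replicate block. For Isg20 the log2 change at 18 h exceeded that at 4 h by 1.64, and for Bst2 by 1.52. For Adar the difference was -1.22. Each of these 3 calls was lost under at least 11 of 23 alternatives, and 2 further probe sets of Adar rose at 18 h while the main one did not. The cause of these differences was not tested.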

How the results depend on the processing

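Rises against control were the most stable: 31 of 34 calls at 4 h, 28 of 36 at 10 h and 24 of 32 at 18 h held under every alternative, and no alternative gave a count of calls more than 1.5 times away. With each array left out in turn the counts were 32 to 32, 28 to 34 and 26 to 32, and the medians 1.85 to 2.03, 1.59 to 2.25 and 1.15 to 1.96. Where 1 control array was left, its spread was taken from the pooled fit, as if it varied like the rest. The mean of probe sets gave medians of 1.74 at 4 h and 1.72 at 10 h, and arrays 2 and 3 alone 1.69 at 10 h and 1.27 at 18 h. The effect at 18 h minus 4 h had 3 calls, but 1 with median centring, 7 with spike-in centring, 0 with background subtraction, 5 with dim genes left out, 0 with only the groups compared, 12 with the replicate block, 12 (all downward) with arrays 2 and 3 alone, 0 at adjusted p under 0.01 and 0 to 3 with an array left out. The 10 h minus 4 h effect had 2 calls with the replicate block, and 18 h minus 10 h had 1 with the block and 1 with arrays 2 and 3 alone; both had 0 with any array left out. In NCFM cells 10 h against 4 h had 7 calls, 13 with the replicate block, 4 at adjusted p under 0.01 and 4 to 7 with an array left out. NCFM cells 18 h against 10 h had 4 calls, 8 with spike-in centring, 2 with background subtraction, 2 with only the groups compared, 11 with the replicate block, 8 (7 falls and 1 rise) with arrays 2 and 3 alone, 0 at adjusted p under 0.01 and 0 to 3 with an array left out. Control cells 18 h against 4 h had 2 calls with arrays 2 and 3 alone. The change of Ptpn11 at 18 h turned to 0.037 with the mean of probe sets (adjusted p = 0.644). The replicate block changed no call of a member or pathway gene in the NCFM against control comparisons other than those of Epsti1, Zc3hav1, Ifi27l2a, Tlr2, Tlr1, Tlr6, Tirap, Ifna4, Ifnar1, Ifnar2, Jak2 and Tyk2. The calls over all genes that were lower made up 71.2%, 66.7% and 68.8% at the 3 times, 58.1%, 50.1% and 51.4% with quantile normalization, and 74.8%, 74.3% and 89.6% with spike-in centring, which moved the median of all genes at 18 h to -0.18. The cause of these shifts was not tested.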
